A study of Mus musculus with 6 samples.

Results

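Keratins are the intermediate filament proteins of epithelial cells, and 10 of the 35027 genes in the deposited table were examined here as the epithelial keratins: Krt7, Krt8, Krt18, Krt19 and Krt20, the 5 keratins of simple (single-layered) epithelia, Krt5, Krt14, Krt15 and Krt17, 4 keratins of stratified epithelia, and Krt80, which is found in several kinds of epithelium and was kept apart from both classes. They were taken by gene symbol, and the list was drawn up with earlier results of these data known. The RNA came from thyroid tumors of mice of 2 genotypes, sorted for the fluorescent reporter Kate, and the comparison asks what mutant Braf adds to tumors driven by YAP. In YAP mice, doxycycline (dox) switched on a transgene for YAPS127A, a YAP mutant that stays in the nucleus, in the follicular cells of the thyroid. BrafYAP mice carried the same transgene and, in addition, BrafV600E expressed from the endogenous gene. Both groups therefore received dox (from 4 weeks of age, per the labels) and both expressed mutant YAP, and there was no normal thyroid among the 6 libraries. Each library came from about 20000 sorted cells. Per the labels, each of the 3 YAP libraries was a pool of 3 tumors and each of the 3 BrafYAP libraries came from 1 tumor, so pooling and genotype cannot be told apart, and the spread within a group is that between pools in one and between tumors in the other. The study's methods instead describe a single tumor per mouse for each replicate, with no mention of pooling. For the dox start its methods give 4 weeks of age, as the labels do, whereas its results text places it later. The labels were followed on both points.

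Keratin filaments are obligate heteropolymers, built from equal amounts of a type I and a type II protein. The usual partners are Krt18 with Krt8 in simple epithelia and Krt14 with Krt5 in the basal layer of stratified epithelia. Thyroid follicles are a simple epithelium, whose cells make mainly Krt7, Krt8, Krt18 and Krt19. The type II genes lie in a cluster on chromosome 15 and the type I genes in a cluster on chromosome 11. Krt18, the type I gene at the end of the chromosome 15 cluster next to Krt8, is the exception.

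The deposited values were TPM, in which reads had been divided by the whole genomic span of a gene. A gene could therefore be compared between libraries on that scale, and genes with each other only after recalculation per exonic length, called exonic TPM here. The estimated depth was 26.2 to 36.9 M reads per library. YAP replicate 1 and BrafYAP replicate 6 stood apart from most other libraries. Pearson's r across 7319 genes (which are not independent replicates) was as low as 0.733 between them, against 0.979 between BrafYAP replicates 1 and 2. YAP replicate 1 was closer to YAP replicate 3, at 0.935. Of the thyroid transcription factors, Pax8 and Nkx2-1 were present in every library (75.9 to 220 and 4.65 to 23.1 exonic TPM). Thyroglobulin (Tg), the most abundant product of differentiated follicles, varied widely. It had 64.4, 12.0 and 170 exonic TPM in YAP replicates 1, 2 and 3. In BrafYAP replicates 1, 2 and 6 it had 1.29, 0.532 and 196.

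Keratins of simple epithelia made up nearly all of the keratin message in both genotypes. The 10 genes together held 0.731 to 2.20% of all transcripts by exonic TPM, and Krt18 ranked between place 5 and place 23 among all genes of a library. By mean exonic TPM the order was Krt18, Krt8, Krt19, Krt7 and Krt17 in both genotypes. In YAP cells these stood at 5828, 2984, 2795, 879 and 430 exonic TPM, and in BrafYAP cells at 6961, 4196, 1846, 1496 and 205. Some neighbours in this order were not separated. Krt18 exceeded Krt8 in all 6 libraries although their ranges overlapped between libraries, and Krt8 exceeded Krt19 in 2 of 3 YAP and 3 of 3 BrafYAP libraries. Krt17 exceeded Krt20, its next neighbour in BrafYAP cells, in 1 of 3 BrafYAP libraries. The order of the means diverged below Krt17. In YAP cells Krt80, Krt14 and Krt20 followed at 51.6, 50.9 and 19.8 exonic TPM, with Krt80 above Krt14 in 1 of 3 libraries, whereas in BrafYAP cells Krt20 came first of these, at 147 exonic TPM, ahead of Krt80 at 25.7 and Krt14 at 19.6. Krt5 and Krt15 were lowest in both, with means of 1.14 to 2.69 exonic TPM. Levels of Krt7 and Krt80 per exonic base may be understated relative to the others, because their annotated exons sum to 7049 and 6393 bases, against 1437 to 2197 bases for the other 8 genes.

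**Figure D1:**
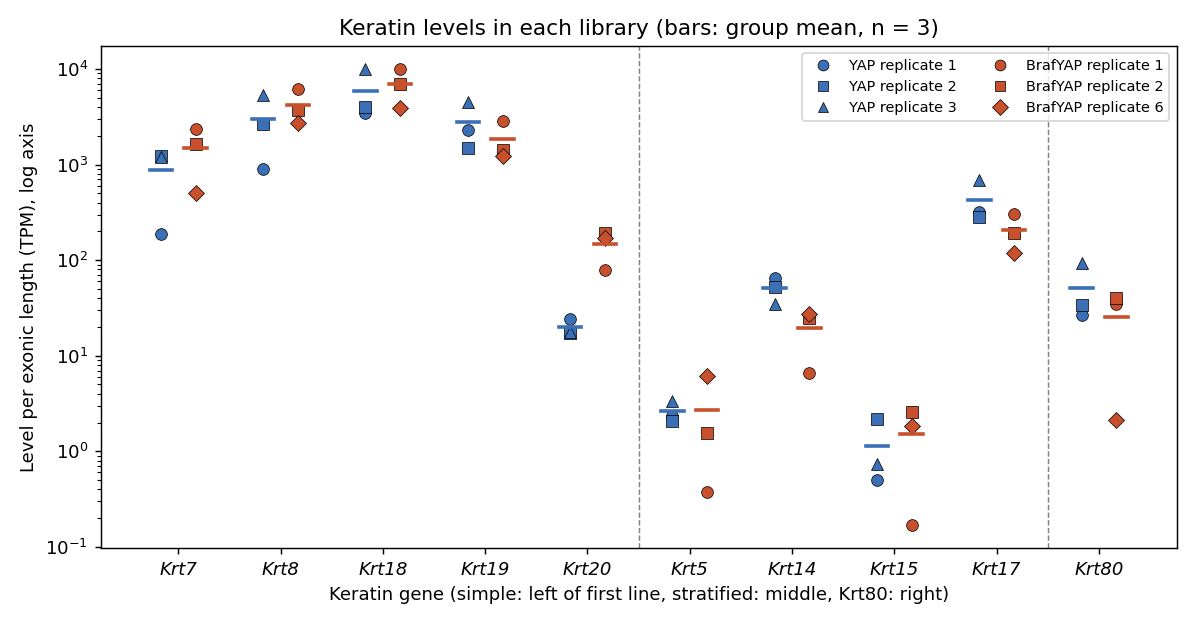
Level of each keratin (exonic TPM, logarithmic axis) in the 3 YAP libraries (blue) and 3 BrafYAP libraries (orange), with a bar at each group mean and the replicate number given by the symbol. Krt20 is the gene whose BrafYAP libraries all lie above the YAP libraries (79.5 to 192 against 17.4 to 24.4 exonic TPM), Krt14 the gene whose BrafYAP libraries all lie below (6.56 to 27.6 against 35.0 to 65.6), and the other 8 overlap.

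The genotypes were then compared for each keratin with limma. The 7319 genes whose mean value reached 1 were fitted together as log2(value + 1), which makes folds of low genes look smaller than they are. Krt5 and Krt15 lay below that mean and were compared on log2(scaled reads + 1), where scaled reads are estimated reads with the authors' scaling between libraries kept, across 16861 genes. None of the 10 keratins passed an adjusted p-value of 0.05 in limma. That fit called 0.246% of all genes tested on the value scale and 0% on the read scale. Before adjustment, 3 of the 10 (Krt20, Krt14 and Krt17) had a p-value under 0.05, as had 19.9% of all genes on the value scale and 20.2% on the read scale. Of these 3, Krt20 was higher and the other 2 were lower. Of all 7319 genes on the value scale, 10.7% had such a p-value and were higher, and 9.17% had one and were lower. The groups did not overlap for 2 of the 10, Krt20 and Krt14, against a background of 28.2% of all genes on the value scale and 28.7% on the read scale. Both shares are near those of all genes, so the keratins as a list did not stand out. In bulk libraries, fewer cells of a type and less RNA per cell cannot be told apart.

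Krt20, a type I keratin of intestinal epithelium and of the surface cells of the urothelium, showed the largest difference of the 10. Its deposited values were 1.87, 1.37 and 1.27 in YAP replicates 1, 2 and 3 and 5.85, 13.8 and 12.5 in BrafYAP replicates 1, 2 and 6. Every BrafYAP library was thus above every YAP library, by 3.14-fold between the nearest libraries of the 2 groups, and the values rested on 330 to 533 estimated reads in YAP and 1552 to 5176 in BrafYAP cells. This came to 2.16 on the log2(value + 1) scale (SE 0.33), just short of the threshold (limma adjusted p = 0.0511). On scaled reads, where the added constant weighs little, it was 2.76 (SE 0.40, limma adjusted p = 0.0623). Krt20 passed the threshold with quantile normalization, array weights or exonic lengths, and without YAP replicate 2 (limma adjusted p of 0.00883 to 0.0476). Of all genes, 1393 of 7319 passed with array weights and 465 of 7276 without YAP replicate 2. Under the other settings run for it Krt20 did not pass (limma adjusted p of 0.0579 to 0.271, the highest with the replicate block). Its difference stayed between 1.95 and 2.76 under every setting that was run. BrafYAP replicate 1 had the lowest Krt20 of its group, so replicate 6, the library that stood apart, did not carry the difference alone. Even so, Krt20 was a small part of the simple keratins, at 0.0830 to 0.354% of their summed exonic TPM in YAP and 0.370 to 1.99% in BrafYAP cells.

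Because Krt20 differed most, the 250 bases before its RefSeq start site are shown (GRCm38.p6, chr11:99438154-99438403, minus strand, written 5′ to 3′ along the gene). Capitals mark GGAATG, the core motif of TEAD factors, through which YAP binds DNA, or CATTCC, the same motif on the other strand.
Krt20: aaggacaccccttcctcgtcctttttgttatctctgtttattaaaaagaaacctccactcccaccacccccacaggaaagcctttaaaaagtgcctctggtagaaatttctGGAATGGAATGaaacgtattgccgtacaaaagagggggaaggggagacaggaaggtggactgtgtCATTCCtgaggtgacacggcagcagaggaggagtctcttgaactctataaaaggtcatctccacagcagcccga
The motif occurred 3 times, starting 139 and 134 bases before the start site on the gene's strand (these 2 overlap by a base pair) and 74 bases before it on the other strand. Searched on both strands, at least 1 match lay in 12.6% of 32851 RefSeq windows of that length and at least 3 lay in 0.0913% of them. A TATAAA box lay 29 bases before the start site (TATAAA was on the gene's strand in 7.59% of windows). Windows were available for 6 of the 10 keratins. Krt14 had 1 GGAATG match, and Krt7, Krt8, Krt18 and Krt5 had none. The windows of Krt14 and Krt7 lie wholly inside the GENCODE gene, and those of Krt8 and Krt18 lie inside it for 140 and 36 bases. TGANTCA, the AP-1 motif, was in none of the 6 windows and in 6.75% of all. These matches are descriptions of sequence, chosen with the values known, and mutant YAP was expressed in both groups.

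The abundant pair, Krt8 and Krt18, overlapped between genotypes. Krt8 had deposited values of 86.4, 269 and 495 in YAP replicates 1, 2 and 3 and 574, 343 and 255 in BrafYAP replicates 1, 2 and 6. Krt18 had 500, 595 and 1369 in the YAP and 1399, 940 and 545 in the BrafYAP libraries. For both genes YAP replicate 1 was lowest of all 6 and BrafYAP replicate 1 highest, and BrafYAP replicate 6 lay below YAP replicate 3. In limma the log2 difference was 0.70 (SE 0.65) for Krt8 and 0.27 (SE 0.50) for Krt18 (adjusted p = 0.568 and 0.786). Without YAP replicate 1 these became 0.015 and -0.012, and without BrafYAP replicate 1 they became 0.39 and -0.050. The higher mean of Krt8 in BrafYAP cells thus rested on YAP replicate 1, and that of Krt18 on either library. Part of the Krt8 reads is uncertain, because the pseudogene Krt8-ps is 98.6% identical to Krt8 over 941 bases and held 17.2 to 20.1% of the reads of the pair.

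The balance of the partners set YAP replicate 1 apart again. The ratio of Krt8 to Krt18 in exonic TPM was 0.257 in that library and 0.537 to 0.695 in the other 5. With the reads of Krt8-ps added, the ratio in estimated reads was 0.422 in YAP replicate 1 and 0.905 to 1.18 in the others. Over all 10 genes, type I keratins exceeded type II keratins by 5.62-fold in YAP replicate 1 and by 1.48- to 2.29-fold elsewhere. The 2 genotypes overlapped in the Krt8 to Krt18 ratio with or without that library.

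Krt7 and Krt19, the remaining keratins of thyroid follicles, differed in opposite directions and neither passed the test. Krt7, a type II keratin of ducts and glands, had deposited values of 26.4, 181 and 162 in the YAP and 319, 219 and 68.6 in the BrafYAP libraries. YAP replicate 1 and BrafYAP replicate 6, the libraries that stood apart, were the lowest of their groups. Krt7 differed by 0.86 on the log2 scale (SE 0.86, limma adjusted p = 0.601), and by -0.021 without YAP replicate 1 and 1.51 without BrafYAP replicate 6. An antisense gene, Gm671, overlaps Krt7, and without strand information their reads cannot be told apart. Krt19, the type I keratin without a tail domain, had deposited values of 212, 140 and 394 in the YAP and 253, 121 and 110 in the BrafYAP libraries. It was the only simple keratin with a lower mean in BrafYAP cells (log2 difference -0.60, SE 0.49, limma adjusted p = 0.518), and the groups overlapped.

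Among the stratified keratins, Krt14 and Krt17 had lower values in BrafYAP cells and were the more abundant. Krt14, the type I keratin of basal cells, had deposited values of 10.2, 8.30 and 5.14 in YAP replicates 1, 2 and 3 and 0.979, 3.59 and 4.15 in BrafYAP replicates 1, 2 and 6. Every BrafYAP library was below every YAP library, by 1.24-fold between the nearest ones, with 659 to 1306 estimated reads in YAP and 117 to 617 in BrafYAP cells. The log2 difference was -1.26 (SE 0.43) on values and -1.63 (SE 0.59) on scaled reads (limma adjusted p = 0.172 and 0.195). It weakened most, to -0.82, without BrafYAP replicate 1. Krt17, a type I keratin of injured skin and of hair follicles, had deposited values of 40.0, 36.4 and 80.7 in the YAP and 36.7, 22.4 and 14.2 in the BrafYAP libraries. The groups met at their edges, where BrafYAP replicate 1 slightly exceeded YAP replicate 2. Krt17 differed by -1.08 on the log2 scale (SE 0.45, limma adjusted p = 0.246), and it passed the threshold with array weights alone among the settings run (limma adjusted p = 0.0397). Krt14 and Krt17 are 89.8% identical over 927 bases of transcript, so reads from shared stretches may have been divided between them.

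Krt5 and Krt15 were scarce. Krt5, the type II partner of Krt14, had 58.8, 45.0 and 79.8 estimated reads in the YAP and 8.28, 47.9 and 171 in the BrafYAP libraries. BrafYAP libraries 1 and 6 were thus the lowest and the highest of all 6. On scaled reads Krt5 differed by -0.75 on the log2 scale (SE 0.93, limma adjusted p = 0.673). Dropping BrafYAP replicate 6 made this -1.73 and dropping BrafYAP replicate 1 made it 0.22. In exonic TPM, Krt5 was 0.0360 to 0.0969 of Krt14 in YAP and 0.0567 to 0.222 of it in BrafYAP cells, so Krt14 was not matched by its usual partner in any library. Krt15, a basal keratin of the type I cluster, had 10.0, 38.0 and 14 estimated reads in the YAP and 3, 64.0 and 41.0 in the BrafYAP libraries. Its log2 difference was 0.0018 with a standard error of 1.09 (limma adjusted p = 0.999), so a difference of the size seen for Krt14 could not be detected for it.

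Krt80, a type II keratin, varied more between BrafYAP libraries than between genotypes. Its deposited values were 2.88, 3.84 and 9.67 in the YAP and 3.61, 4.15 and 0.224 in the BrafYAP libraries. Replicate 6 held 172 estimated reads, whereas the other 5 libraries held 1918 to 6428. The log2 difference was -0.93 (SE 0.63, limma adjusted p = 0.444), and it was -0.26 without BrafYAP replicate 6. The antisense gene Gm35853 overlaps Krt80, and their reads cannot be told apart.

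**Figure D2:**
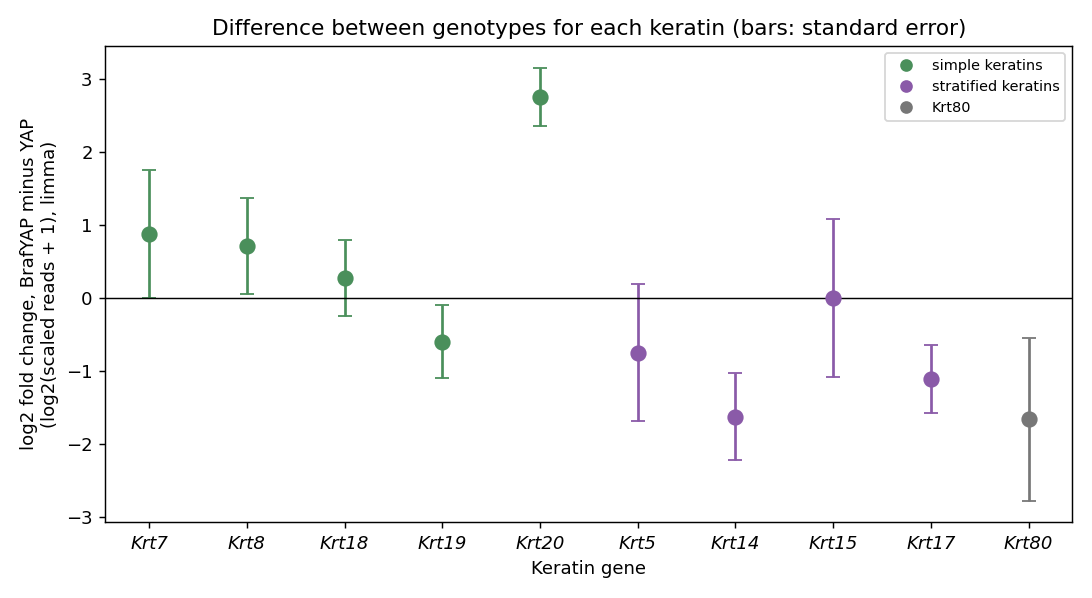
Log2 fold change of each keratin, BrafYAP minus YAP, on log2(scaled reads + 1), a scale on which all 10 genes were fitted, with bars of 1 standard error (limma, 3 libraries per group). Krt20 is the highest at 2.76, the other simple keratins lie between -0.60 and 0.88, and the 4 stratified keratins lie between -1.63 and 0.00.

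Simple and stratified keratins were then set against each other. On the value scale 4 of 5 simple keratins had a positive log2 fold change, with a median of 0.70. Of the stratified keratins 3 of 4 had a negative one, with a median of -0.56. That median includes Krt5 and Krt15, which were too low to be tested on this scale and whose folds it makes look smaller. The median over all genes tested was -0.06. The class medians differed by 1.26, but by 0.55 without YAP replicate 1, where the simple median was -0.012, and by 0.73 without BrafYAP replicate 1. On scaled reads the medians were 0.71 for simple keratins, -0.93 for stratified keratins and -0.11 for all genes. Of the 7 keratins outside Krt20, Krt14 and Krt17, none had an unadjusted p-value under 0.05, so these medians describe the lists and were not tested.

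The proportion of the classes within a library did not overlap between genotypes. Summed exonic TPM of the simple keratins was 6895, 9423 and 21199 in YAP replicates 1, 2 and 3 and 21497, 13923 and 8517 in BrafYAP replicates 1, 2 and 6. The stratified sum was 390, 339 and 724 in the YAP and 313, 220 and 153 in the BrafYAP libraries. The simple sum overlapped between genotypes and the stratified sum was lower in every BrafYAP library. The ratio of simple to stratified was 17.7, 27.8 and 29.3 in the YAP and 68.7, 63.4 and 55.5 in the BrafYAP libraries, 24.9 ± 6.32 (SD, n = 3) against 62.5 ± 6.60 (SD, n = 3). Stratified keratins accordingly made up 3.29 to 5.34% of the 10 keratins in YAP and 1.43 to 1.77% in BrafYAP cells. The groups were as clearly apart with the deposited values (16.3 to 28.02 against 50.8 to 67.5), with Krt80 counted as stratified (16.5 to 25.9 against 53.5 to 61.8), and without Krt14 (21.2 to 32.8 against 67.8 to 71.4). Leaving out Krt17, the most abundant stratified keratin, made the ratios overlap (100.7 to 541 against 239 to 3026). The ratio thus mainly sets the abundant simple keratins against Krt17, and as a score over chosen genes it was not tested.

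**Figure D3:**
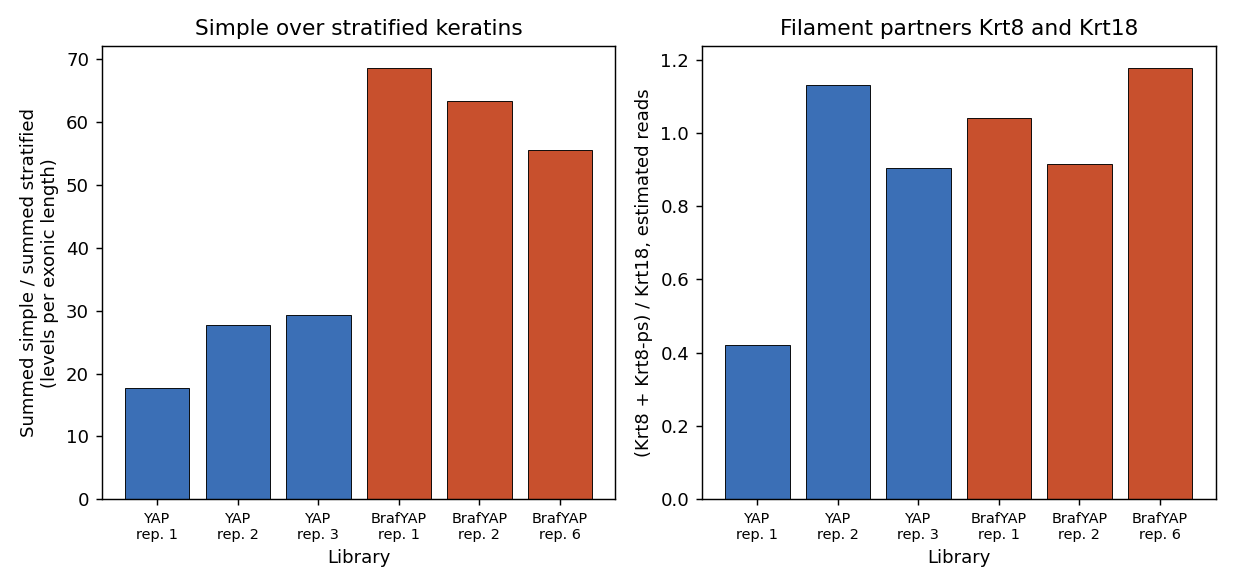
Left, the ratio of summed simple to summed stratified keratins in exonic TPM for each library, which is 17.7 to 29.3 in the YAP and 55.5 to 68.7 in the BrafYAP libraries. Right, the ratio of Krt8 with Krt8-ps to Krt18 in estimated reads for each library, which is 0.422 in YAP replicate 1 and 0.905 to 1.18 in the other 5.

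Individual genes gave the same contrast at its sharpest in Krt20 and Krt14. Krt20 stood at 0.372, 0.335 and 0.502 of Krt14 in exonic TPM in YAP replicates 1, 2 and 3, and at 12.1, 7.80 and 6.12 times Krt14 in BrafYAP replicates 1, 2 and 6. Krt14 was the higher of the pair in each YAP library and Krt20 in each BrafYAP library. These 2 genes were picked as the non-overlapping members, so the separation of their ratio was fixed by that choice.

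Markers of other cell types that a neck dissection could carry were read in the same libraries. The list of 8 thymic epithelial markers was of interest because thymic epithelium expresses Krt5 and Krt14. Ccl21a of that list had no exonic TPM, and the others summed to 70.3 to 110 in YAP and 9.40 to 19.1 in BrafYAP cells. Every BrafYAP library was thus below every YAP library, as for the stratified sum, which was mostly Krt17. Most of the thymic sum was Cd40, at 60.6 to 88.9 exonic TPM in YAP and 5.99 to 14.4 in BrafYAP cells. Cd40, which B cells and macrophages also express, was lower in BrafYAP cells (log2 difference -1.88, limma adjusted p = 0.0468) and was the only member of that list past the threshold. Foxn1, the defining transcription factor of thymic epithelium, had 344, 175 and 952 estimated reads in the YAP and 48.0, 12.0 and 41.0 in the BrafYAP libraries, whereas Psmb11, the cortical proteasome subunit, had values of 0.0051 or less in all 6. Prss16, a thymic protease, had its higher values in BrafYAP cells (0.154 to 0.677 against 0 to 0.243 exonic TPM, with overlap). The 12 immune markers summed to 11768 to 40446 exonic TPM in YAP and 3270 to 12654 in BrafYAP cells, and were highest in YAP replicate 1. Lyz2, the lysozyme of myeloid cells, made up nearly all of that sum, at 11029 to 38891 in YAP and 3008 to 12011 in BrafYAP cells. The 6 skeletal muscle markers summed to 5.91 to 21.6 exonic TPM in YAP and 1.37 to 4.23 in BrafYAP cells, with Myh1 at 0 in all 6 libraries. Their sum was likewise lower in every BrafYAP library. Acta1, a member of that list, overlapped between genotypes. The airway and esophageal list of 9 genes summed to 7.02 to 41.9 in YAP and 25.7 to 115 in BrafYAP cells. The parathyroid and C cell lists were highest in BrafYAP replicate 6, at 637 and 337 exonic TPM. The endothelial, fibroblast and erythroid sums overlapped between genotypes. The part of these cells in the keratin values was not tested.

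Other keratins outside the 10 were scarce. Of 17 further epithelial keratins, 14 were in the table, 6 could be tested on either scale and none passed the threshold. Krt16, the type I keratin of activated epidermis and the most abundant of them, had deposited values of 2.93, 0.892 and 5.19 in the YAP and 0.385, 0.807 and 0.666 in the BrafYAP libraries, lower in every BrafYAP library (log2 fold change -1.16, SE 0.42, limma adjusted p = 0.189). It is 87.1% identical to Krt14 over 1278 bases, so reads of the 2 genes are not fully separable. Krt10, a keratin of differentiated epidermis, differed by only 0.18 (SE 0.18), from 0.548, 1.10 and 1.05 in YAP to 1.19, 1.12 and 1.10 in BrafYAP cells. Its groups did not overlap, but they almost touched, at 1.09593 in YAP replicate 2 and 1.09685 in BrafYAP replicate 6.

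Genes that anchor keratin filaments to junctions showed no call either. Of 17 linker and desmosome genes tested on either scale, none passed the threshold, and at an unadjusted p-value under 0.05 3 were higher and 1 lower (in all genes, 10.7% and 9.17% on the value scale and 9.71% and 10.5% on the read scale). Jup (plakoglobin), a desmosomal and adherens junction protein and the most abundant of the list, had deposited values of 2.84, 15.0 and 12.1 in the YAP and 20.2, 23.7 and 18.0 in the BrafYAP libraries (log2 fold change 1.21, SE 0.53, limma adjusted p = 0.265). Dsp (desmoplakin), which ties keratins to the desmosome, was lower in every BrafYAP library, from 1.24 to 1.92 in YAP to 0.612 to 0.951 (log2 fold change -0.54, SE 0.19, limma adjusted p = 0.182). Eppk1 (epiplakin), a cytolinker of simple epithelial keratins, was also lower in every BrafYAP library (log2 fold change -0.65, SE 0.31, limma adjusted p = 0.301).

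Genes that share an epithelium with each keratin class were read next. Of 19 genes of simple epithelia tested, 6 were higher in every BrafYAP library and 0 lower, against 11.8% higher and 16.4% lower among all genes on the value scale (11.7% and 17% on the read scale), and none passed the threshold. Cldn3 (claudin 3), a tight junction protein and the most abundant of that list, had deposited values of 23.8, 299 and 235 in the YAP and 933, 395 and 723 in the BrafYAP libraries (log2 fold change 2.42, SE 0.93, limma adjusted p = 0.216). Spint1, a membrane protease inhibitor, was 2.01 higher on the log2 scale (SE 0.52, limma adjusted p = 0.110), and Tjp3, a tight junction scaffold, 2.26 higher on scaled reads (SE 1.05, limma adjusted p = 0.279). YAP replicate 1 was the lowest library for all 3.

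Of 16 basal and squamous genes tested, 2 were higher in every BrafYAP library, 1 was lower, and none passed the threshold. By these counts the list was near the shares of all genes given above (11.8% and 16.4%) or below them. At an unadjusted limma p-value under 0.05, 3 were higher and 0 lower (in all genes, 10.7% and 9.17% on the value scale and 9.71% and 10.5% on the read scale). The median of the 8 on the value scale was 0.80, against -0.06 over all genes. Lor (loricrin), a protein of the cornified envelope, had 0, 2 and 2 estimated reads in the YAP and 85.0, 122 and 37.0 in the BrafYAP libraries (log2 fold change 4.95 on scaled reads, SE 0.83, limma adjusted p = 0.0761). Sprr1a, another cornified envelope gene, had deposited values of 0.948 to 1.65 in YAP and of 4.12, 6.18 and 111 in BrafYAP replicates 1, 2 and 6 (log2 fold change 2.81, SE 1.08, limma adjusted p = 0.216), so replicate 6 held most of it. Itga6, the integrin of basal hemidesmosomes, was lower in every BrafYAP library (log2 fold change -0.46 on scaled reads, SE 0.26, limma adjusted p = 0.369), and Sfn, the most abundant of the list, overlapped (-0.62, SE 0.43, limma adjusted p = 0.451). Trp63, the transcription factor of basal cells, had 212 to 351 estimated reads and 2.32 to 3.64 exonic TPM in all 6 libraries.

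**Figure D4:**
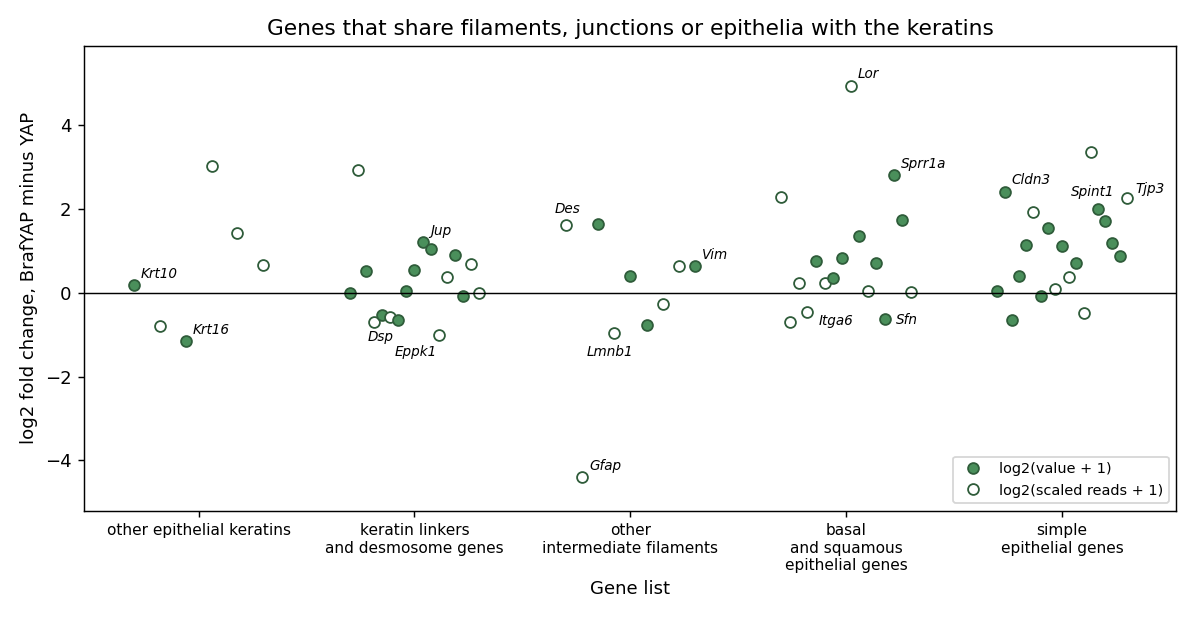
Log2 fold change, BrafYAP minus YAP, of each tested gene in 5 lists related to the keratins, on log2(value + 1) where the mean value was at least 1 (filled) and on log2(scaled reads + 1) otherwise (open). The named genes range from Gfap at -4.40 to Lor at 4.95, and none of the points passed the limma threshold.

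Among 9 other intermediate filament genes none passed the threshold. Vim (vimentin), the filament of mesenchymal cells and the most abundant of them, had deposited values of 65.6, 226 and 96.9 in the YAP and 330, 442 and 37.1 in the BrafYAP libraries, with overlap (log2 fold change 0.64, SE 0.96, limma adjusted p = 0.733). Gfap, the filament of glia, had 34.0, 491 and 204 estimated reads in the YAP and 9, 14 and 3 in the BrafYAP libraries (log2 fold change -4.40 on scaled reads, SE 1.06, limma adjusted p = 0.108). Des (desmin) differed by 1.62 (SE 0.72) and Lmnb1 (lamin B1) by -0.96 (SE 0.39) on scaled reads, each without overlap (limma adjusted p = 0.261 and 0.230).

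The genes with profiles nearest to the keratins across the 6 libraries were sought by root mean square distance between centred log2(value + 1) profiles. Nearest to the mean of Krt8 and Krt18 were Eif1, a translation initiation factor, at 0.237, Mal, a lipid raft protein of apical membranes, at 0.239, and Eif1-ps2, a pseudogene of the former, at 0.263, where the median over all tested genes was 0.793. Eif1 had deposited values of 86.5, 226 and 284 in the YAP and 338, 249 and 185 in the BrafYAP libraries, with YAP replicate 1 lowest and BrafYAP replicate 1 highest, as for the keratin pair. Nearest to Krt14 were H2-T22, a nonclassical MHC class I gene, at 0.365 and Psme2b at 0.371, where the median was 0.885. H2-T22 had deposited values of 41.0, 35.9 and 21.1 in the YAP and 8.10, 8.60 and 14.2 in the BrafYAP libraries.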

How the data were processed

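RNA-seq of 6 libraries of Kate-positive sorted cells was analysed, grouped by GEO's titles. Amplification by SMART-Seq (12 cycles) preceded library preparation. Per the submitters' processing notes and the study's methods, the authors used STAR 2.6.1d for alignment to mm10, quantified reads in Partek on Ensembl release 95, and deposited TPM with 0.0001 added. Each column of the deposited TPM sums to 181218. Every table column had a sample (0 without one).

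Low values (under 200 reads) were whole multiples of 1 read, within 0.05, for 71.5 to 75.7% of genes when multiplied by the genomic span from GENCODE M21 and for 9.61 to 14.7% with the exonic length. Reads were therefore estimated from the span for the 34640 genes matched by symbol at 1 locus. As many values were not whole, no count test was run. E/M quantification can divide reads between similar genes, and no strand was stated. Reads carry no molecular identifiers, so depth covers counting error only.

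The main fit was limma 3.58.1 (R 4.3.3; lmFit, then eBayes with a trend, two-sided). It took log2(value + 1) of every gene whose mean reached 1, and p-values were adjusted over all of them by Benjamini-Hochberg, at 0.05. For lower genes the input was log2(scaled reads + 1), if the mean reached 10 reads. The fit was tested on simulated data. P-values measure the spread between these libraries, since the labels do not say which mice they came from. Similar transcripts were found with minimap2 2.31-r1302, and promoter windows came from RefSeq (GRCm38.p6; 4 of 10 keratins had none).

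The members, lists and tests were chosen with earlier results of these data known. Named are all 10 keratins and, from each related list, genes past the threshold, the 3 without overlap that differed most (fewer where fewer existed), and the most abundant gene, with the 3 genes nearest to each keratin profile (1 of them is not reported here). Marker genes, Trp63 and the motifs were named after their values were seen. Alternatives were pseudocounts of 0.1 and 0.0001, no filter or a minimum mean of 10, median-ratio and quantile normalization, no trend, array weights, a replicate block, estimated reads, exonic lengths, each library left out, and Krt80 as stratified. Chosen after seeing the data were the addition of Krt8-ps, the simple median without Krt20, and the other ratios of simple to stratified.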

Additional observations from a re-analysis of the deposited data

How the results depend on the processing

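Of all genes, 18 passed the threshold (12 lower, 6 higher). The number was 1 with a pseudocount of 0.1, median-ratio rescaling or no trend, 0 with a pseudocount of 0.0001 or on estimated reads (where 3408 genes had an unadjusted p-value under 0.05), 3 with a minimum mean of 10, 63 with exonic lengths (26 higher, 37 lower), 79 with quantile normalization (41 higher, 38 lower) and 1393 with array weights (888 higher, 505 lower). Leaving out a library gave 0 to 465 genes, the latter without YAP replicate 2. The count of keratins past the threshold was 0, and 1 (Krt20) with quantile normalization or exonic lengths, 2 (Krt20 and Krt17) with array weights, and 0 to 1 when a library was left out. Krt8, Krt14, Krt17 and Krt20 kept their direction under every setting that could be run for them. Krt18 was -0.038 with array weights, and -0.050 to 0.71 when a library was left out (-0.012 without YAP replicate 1), and Krt7 -0.021 to 1.51. Krt5 was -1.73 to 0.22 when a library was left out. Krt15, whose main value was 0.0018, was -0.053 and -0.060 with pseudocounts of 0.1 and 0.0001, -0.47 with array weights, and -0.67 to 1.12 when a library was left out (-0.42, -0.19 and -0.44 without YAP replicate 1, YAP replicate 3 and BrafYAP replicate 6). The median of the stratified keratins, -0.56, was -0.75 and -0.95 with those pseudocounts, -1.08 with a minimum mean of 10 (which leaves Krt17 alone), -1.20 with array weights (over Krt14 and Krt17, as Krt5 and Krt15 were not in that fit), -0.93 on estimated reads, -0.67 with exonic lengths, -0.93 with Krt80 included, and stayed below 0 when a library was left out, reaching -0.36 without YAP replicate 3 and -0.35 without BrafYAP replicate 1. The median of the simple keratins, 0.70, was 0.12 with array weights, 0.49 without Krt20 and -0.012 to 1.27 when a library was left out (-0.012 without YAP replicate 1, 0.39 without BrafYAP replicate 1 and 1.27 without YAP replicate 3), and Krt8 was 0.73 with the reads of Krt8-ps added. The ratio of simple to stratified keratins differed between genotypes by 1.36 on the log2 scale, by 1.75 without Krt17 (with overlapping groups), and by 1.13 to 1.49 when a library was left out.

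Replicate numbers 1 and 2 occur in both groups, but no label says that they mark a shared mouse or day. The deviations of same-numbered libraries correlated at -0.048 and 0.062, and whether those libraries shared a litter, batch or day was not tested. With the replicate block, which draws on replicates 1 and 2 alone, 0 genes passed, Krt20 was 1.95 (limma adjusted p = 0.271), Krt19 was 0.024, Krt80 was 0.17, Krt15 was -0.64, and the simple and stratified medians were 1.53 and -1.08, which differed by 2.61 (the stratified median here is over Krt14 and Krt17 only, so neither it nor the difference is the same statistic as the -0.56 and 1.26 over 4 genes). The causes of these shifts were not tested. With 3 libraries per group, differences of the size of the standard errors given above could not be detected.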

Other observations

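Some of the scarce keratins outside the 10 varied widely between libraries of the same genotype. Krt4, a keratin of esophageal and other internal stratified epithelia, had deposited values of 1.64 and 1.50 in BrafYAP replicates 1 and 2, and 0.0993 or less in the other 4 libraries, BrafYAP replicate 6 among them (log2 fold change 3.02 on scaled reads, SE 2.31, limma adjusted p = 0.484). Its usual partner Krt13 stood at 0.0174 and 0.0349 in BrafYAP replicates 1 and 6 and was listed at the offset of 0.0001 in the other 4. Krt6a, a type II keratin of wounded epidermis and a partner of Krt16 and Krt17 (log2 fold change 1.43 on scaled reads, SE 1.11, limma adjusted p = 0.490), was highest in YAP replicate 1 (0.735) and lowest in YAP replicate 2 (0.0370), with 0.172 to 0.568 in BrafYAP cells. Krt1 was at the offset in all 6 libraries. These genes were named after their values were seen.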
